A study of Homo sapiens with 2 samples.

Results

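The miR-200 family was examined by small-RNA sequencing in stem-enriched cells of a triple-negative and an oestrogen receptor (ER)-positive human breast cancer line. The family was defined by its hairpins, hsa-mir-200b, hsa-mir-200a and hsa-mir-429 of the cluster on chromosome 1 and hsa-mir-200c and hsa-mir-141 of the cluster on chromosome 12. Both arms of each were taken, except that hsa-mir-429 had only its 3p arm listed. This gave 9 mature arms from 5 hairpins, of 1623 annotated mature miRNAs in the table, and all 9 arms had at least 10 counts in both libraries. The MDA-MB-468 library came from a line that lacks the ER, the progesterone receptor and HER2 and was grown in DMEM. The BT474 library came from an ER-positive line grown in RPMI-1640. Both media carried the same serum and antibiotics, and both cell populations were sorted with CD24 and CD44, surface proteins commonly used to enrich breast cancer stem cells. Only 1 library was made per group, so differences have no replicate check and the cell lines could not be tested against each other. Unsorted cells were not analysed here, and line, medium and sort cannot be told apart. The surface proteins are not miRNAs, so the stem-cell label could not be checked, but all 6 epithelial miRNAs examined outside the family were listed in both libraries, with summed levels of 38416 CPM (counts per 1000000 annotated miRNA counts) in MDA-MB-468, against 37400 CPM in BT474. Without miR-205-5p, which stood at 14367 CPM in MDA-MB-468, against 61.6 CPM in BT474, they summed to 24049 CPM in MDA-MB-468, against 37338 CPM in BT474.

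The miR-200 family marks epithelial cells. Its members repress ZEB1 and ZEB2, transcription factors that silence E-cadherin and drive the epithelial-mesenchymal transition, and ZEB1 and ZEB2 in turn bind and repress the promoters of both miR-200 clusters. Both clusters have been described as low in breast cancer stem cells. A miRNA finds its targets mainly through its seed, bases 2 to 8 from its 5′ end, and the family has 2 seeds on the 3p arms that are the usual guide strands.

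The 3p arms are shown because the seed groups cut across the genomic clusters. Sequences are from RefSeq (GRCh38.p14, plus strand), which held 8 of the 9 arms by name, and capitals mark the seed.
miR-200b-3p, chr1:1167160-1167181: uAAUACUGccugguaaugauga
miR-429, chr1:1169055-1169076: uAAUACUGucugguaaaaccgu
miR-200c-3p, chr12:6963742-6963764: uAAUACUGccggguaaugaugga
miR-200a-3p, chr1:1167916-1167937: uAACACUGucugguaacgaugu
miR-141-3p, chr12:6964155-6964176: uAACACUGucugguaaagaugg
The chromosome 1 cluster therefore supplies both seeds, AAUACUG from miR-200b-3p and miR-429 and AACACUG from miR-200a-3p, and so does the chromosome 12 cluster, from miR-200c-3p and miR-141-3p. The seeds differ by the substitution U4C, counted from base 1 at the 5′ end with the base of miR-200b-3p first and that of miR-200a-3p second. The nearest relatives lay in different clusters. Over the 22 bases compared, miR-200b-3p and miR-200c-3p differed at 2 positions (U11G and A22G, miR-200b-3p first), and miR-200a-3p and miR-141-3p also at 2 (C17A and U22G, miR-200a-3p first). Within the chromosome 1 cluster, miR-200b-3p and miR-429 share a seed but differed at 6 positions. None of the other mature names in the RefSeq table, which holds 2370 names and a sequence for 600 of the 690 miRNAs compared below, carried either seed.

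The 5p arms, usually the passenger strands, are shown because miR-200a-5p was abundant.
miR-200b-5p, chr1:1167124-1167145: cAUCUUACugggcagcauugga
miR-200a-5p, chr1:1167878-1167899: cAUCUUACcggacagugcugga
miR-200c-5p, chr12:6963703-6963724: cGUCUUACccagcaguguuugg
These 3 arms begin with C, whereas all 5 of the 3p arms begin with U. miR-200b-5p and miR-200a-5p share the seed AUCUUAC, and that of miR-200c-5p differs from it.

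Levels were scaled to the library's annotated miRNA counts, of which the MDA-MB-468 library had 11448022 and that of BT474 5133057. A ratio sets MDA-MB-468 over BT474 and has an exact conditional binomial 95% interval, and a level has an exact Poisson interval. Reads amplified by PCR and carrying no molecular identifier are not independent molecules, so all intervals cover counting error only. The ratio was called when it was at least 2-fold in either direction with an interval that excluded 1, for the 690 miRNAs that had 10 counts or more in at least 1 library. Of these, 32.9% were called higher and 28.3% lower in MDA-MB-468, or 61.2% in either direction, with a median log2 ratio of 0.30, so a call by itself was common.

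The chromosome 1 cluster was more abundant in MDA-MB-468 than in BT474. miR-200b-3p, the main arm of its hairpin, had 577559 counts (50450.5 CPM, interval 50321 to 50581) in MDA-MB-468, against 126165 counts (24579 CPM, 24443.5 to 24715) in BT474. It was the fourth most abundant miRNA in MDA-MB-468 and the sixth in BT474. The log2 ratio was 1.04 (1.03 to 1.05), called higher. It was 0.92 with DESeq2 size factors and 0.81 with upper-quartile scaling. It was 0.66 with the 10 most abundant miRNAs of each library, miR-200b-3p among them, left out of the total. With miR-21-5p left out, a setting chosen after seeing the data, it was 0.33, and none of these alternatives was called. miR-429, the other arm with the AAUACUG seed in this cluster, had 33173 counts (2898 CPM, 2867 to 2929) in MDA-MB-468, against 8526 counts (1661 CPM, 1626 to 1697) in BT474, a log2 ratio of 0.80 (0.77 to 0.84) that was not called. miR-200a-3p, with the AACACUG seed, had 81498 counts (7119 CPM, 7070.2 to 7168) in MDA-MB-468, against 25155 counts (4901 CPM, 4840.2 to 4962) in BT474. Its log2 ratio of 0.54 (0.52 to 0.56) was not called. With this scaling the 3 guide arms lay on the same side, with ratios of 1.45-fold to 2.05-fold whose intervals did not meet, but without miR-21-5p in the total miR-200a-3p turned to -0.17.

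The 5p arms of this cluster went apart. miR-200a-5p had 31230 counts (2728 CPM, 2698 to 2758) in MDA-MB-468, against 3953 counts (770.1 CPM, 746 to 794) in BT474. This was the largest ratio of the family, 3.54-fold (log2 1.82, 1.78 to 1.87), called higher, and it stayed called under each of 7 other scalings. miR-200b-5p had 1749 counts (153 CPM, 146 to 160.1) in MDA-MB-468, against 945 counts (184 CPM, 173 to 196) in BT474, a log2 ratio of -0.27 (-0.38 to -0.15) that was not called. It was the only arm of the cluster that was lower in MDA-MB-468 with this scaling.

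The chromosome 12 cluster was lower in MDA-MB-468. miR-200c-3p, which has been linked to repression of the self-renewal factor BMI1, had 119449 counts (10434 CPM, 10375 to 10493) in MDA-MB-468, against 136651 counts (26622 CPM, 26481 to 26763) in BT474. It was the fourth most abundant miRNA in BT474 and the fourteenth in MDA-MB-468. The log2 ratio was -1.35 (-1.36 to -1.34), called lower. miR-141-3p, from the same transcript, had 1192 counts (104 CPM, 98.3 to 110.2) in MDA-MB-468, against 1508 counts (294 CPM, 279 to 309) in BT474, with a log2 ratio of -1.50 (-1.61 to -1.39), also called lower. Both calls held under each of 7 other scalings. The passenger arms were scarce. miR-141-5p had 173 counts (15.1 CPM, 12.9 to 17.5) in MDA-MB-468, against 128 counts (24.9 CPM, 20.8 to 29.6) in BT474, a log2 ratio of -0.72 (-1.06 to -0.38) that was not called. It was called lower without the 10 most abundant miRNAs (-1.10) and without miR-21-5p (-1.43). miR-200c-5p had 41 counts (3.58 CPM, 2.57 to 4.86) in MDA-MB-468, against 12 counts (2.34 CPM, 1.21 to 4.08) in BT474, and a difference was not detectable at this depth (log2 0.62, -0.34 to 1.68). The authors' normalized values, scores of 3 in MDA-MB-468, against 1 in BT474, put it past 2-fold (log2 1.58), with no interval.

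**Figure D1:**
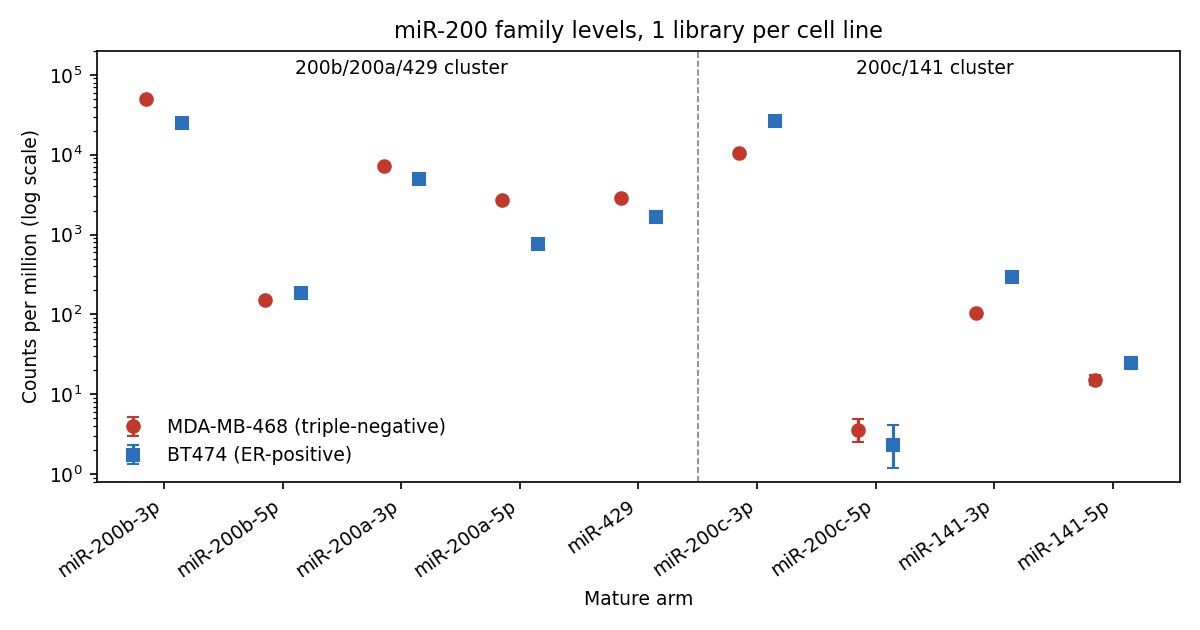
Levels of the 9 arms in CPM on a log scale, with MDA-MB-468 as circles and BT474 as squares, 1 library each; bars are exact Poisson 95% intervals and are mostly smaller than the symbols. The 3p arms of the chromosome 1 cluster sit higher in MDA-MB-468 when scaled to the total of annotated miRNAs, and those of the chromosome 12 cluster sit higher in BT474.

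In all, 2 of the 9 arms were called higher and 2 lower in MDA-MB-468, against 32.9% and 28.3% of all miRNAs compared. With the threshold at 1.5-fold, 3 arms were called higher and 3 lower, against 40.4% and 33.2% of all, and at 3-fold 1 arm was called higher and 0 lower, against 23.9% and 23% of all. The median log2 ratio was 0.80 over the 5 arms of the chromosome 1 cluster and -1.04 over the 4 arms of the chromosome 12 cluster. The ratios of the family, from -1.50 to 1.82, lay well inside the range of all miRNAs compared, -11.58 to 9.25.

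**Figure D2:**
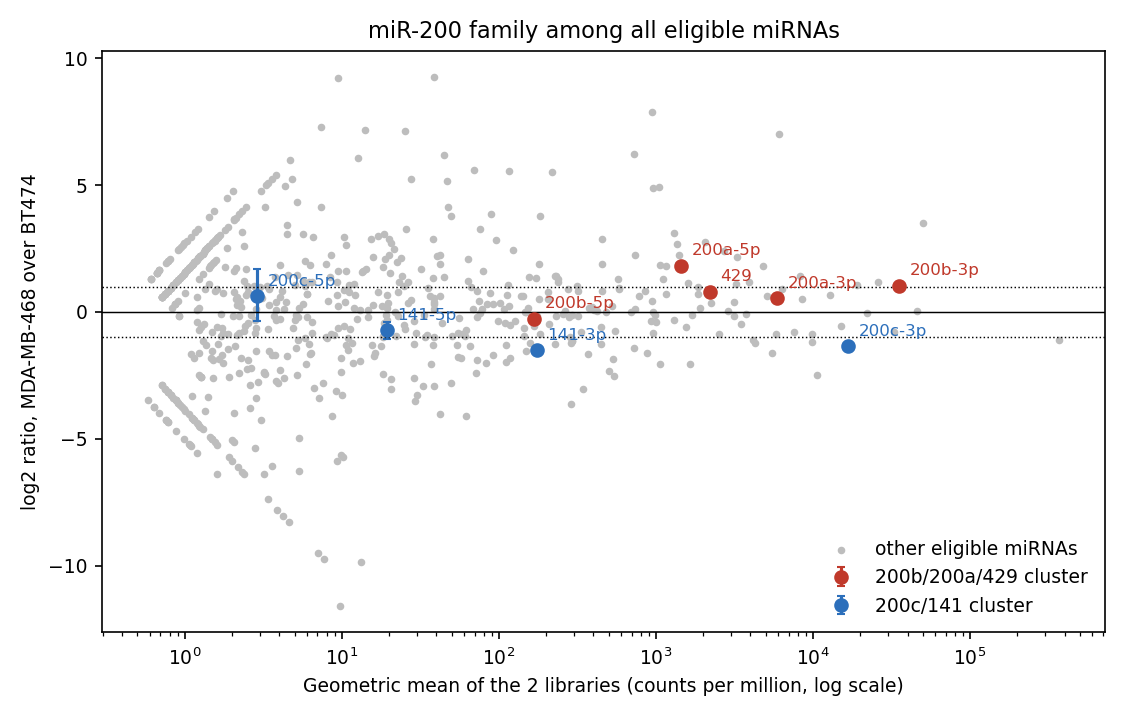
log2 ratio of MDA-MB-468 over BT474 against the geometric mean level of the 2 libraries, for the family arms (red for the chromosome 1 cluster, blue for the chromosome 12 cluster, with 95% counting intervals) and all other compared miRNAs (grey, blanks set at 3 counts); dotted lines mark 2-fold. miR-200a-5p and miR-200b-3p lie above the upper line, and miR-200c-3p and miR-141-3p below the lower one.

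The order of the members differed between the libraries. In MDA-MB-468 miR-200b-3p stood first, 4.84-fold above miR-200c-3p, which was followed by miR-200a-3p, miR-429, miR-200a-5p, miR-200b-5p, miR-141-3p, miR-141-5p and miR-200c-5p. In BT474 miR-200c-3p stood first, 1.08-fold above miR-200b-3p. The next were miR-200a-3p, miR-429 and miR-200a-5p, as in MDA-MB-468, and then miR-141-3p came before miR-200b-5p. The intervals of neighbours did not overlap in either library, the closest pair being miR-429 and miR-200a-5p in MDA-MB-468, 1.06-fold apart.

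Summed over its arms, the chromosome 1 cluster reached 63348 CPM (63202 to 63494) in MDA-MB-468, against 32095 CPM (31940 to 32250.1) in BT474. The ratio was 1.97-fold (log2 0.98, 0.97 to 0.99), just under the threshold. On the log2 scale it was 1.05 with the authors' normalized values, 0.75 with the upper quartile, 0.60 without the 10 most abundant miRNAs and 0.27 without miR-21-5p. The chromosome 12 cluster reached 10557 CPM (10497 to 10616.5) in MDA-MB-468, against 26943 CPM (26801 to 27085) in BT474, 2.55-fold higher in BT474 (log2 -1.35, -1.36 to -1.34). The balance between the clusters does not depend on how the libraries are scaled. The chromosome 1 cluster supplied 85.7% of family counts in MDA-MB-468 (exact Clopper-Pearson interval 85.6 to 85.8), against 54.4% in BT474 (54.2 to 54.5). As odds, chromosome 1 to chromosome 12 counts were 5.04-fold larger in MDA-MB-468 (4.99 to 5.09). Without miR-200b-3p, the most abundant chromosome 1 arm, the share was 55.0% in MDA-MB-468, against 21.8% in BT474. Without miR-200c-3p, which made up nearly all of the chromosome 12 counts, it was 99.8% in MDA-MB-468, against 99.0% in BT474.

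The seed groups gave another picture. The arms with AAUACUG (miR-200b-3p, miR-429 and miR-200c-3p) made up 89.8% of the family's 3p counts in MDA-MB-468 (89.8 to 89.9), against 91.1% in BT474 (90.9 to 91.2). The shares differed by -1.23 percentage points, more than the counting error, where the cluster shares differed by 31.4 points. The near equality needed the leading arms: without miR-200b-3p the AAUACUG share was 64.9% in MDA-MB-468, against 84.5% in BT474, and without miR-200c-3p it was 88.1% in MDA-MB-468, against 83.5% in BT474. The AAUACUG arms summed to 63782 CPM in MDA-MB-468, against 52862 CPM in BT474, a ratio of 1.21-fold (1.20 to 1.21). The AACACUG arms (miR-200a-3p and miR-141-3p) summed to 7223 CPM in MDA-MB-468, against 5194 CPM in BT474, a ratio of 1.39-fold (1.37 to 1.41). Neither sum was called. The direction of both sums depended on the scaling. With miR-21-5p left out of the total, a setting chosen after seeing the data, the log2 ratio was -0.44 for AAUACUG and -0.23 for AACACUG. The AACACUG sum turned in that setting alone and lay between 0.10 and 0.55 in the others. The AAUACUG sum also turned without the 10 most abundant miRNAs (-0.11).

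The source of each seed was then compared. Of the AAUACUG counts, 83.6% (83.6 to 83.7) came from the chromosome 1 cluster in MDA-MB-468, against 49.6% (49.5 to 49.8) in BT474. Of the AACACUG counts, 98.6% (98.5 to 98.6) came from chromosome 1 in MDA-MB-468, against 94.3% (94.1 to 94.6) in BT474. The chromosome 12 cluster thus supplied almost only AAUACUG, which made up 99.0% of its 3p counts in MDA-MB-468, against 98.9% in BT474. Within the chromosome 1 cluster AAUACUG made up 88.2% of 3p counts in MDA-MB-468, against 84.3% in BT474.

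**Figure D3:**
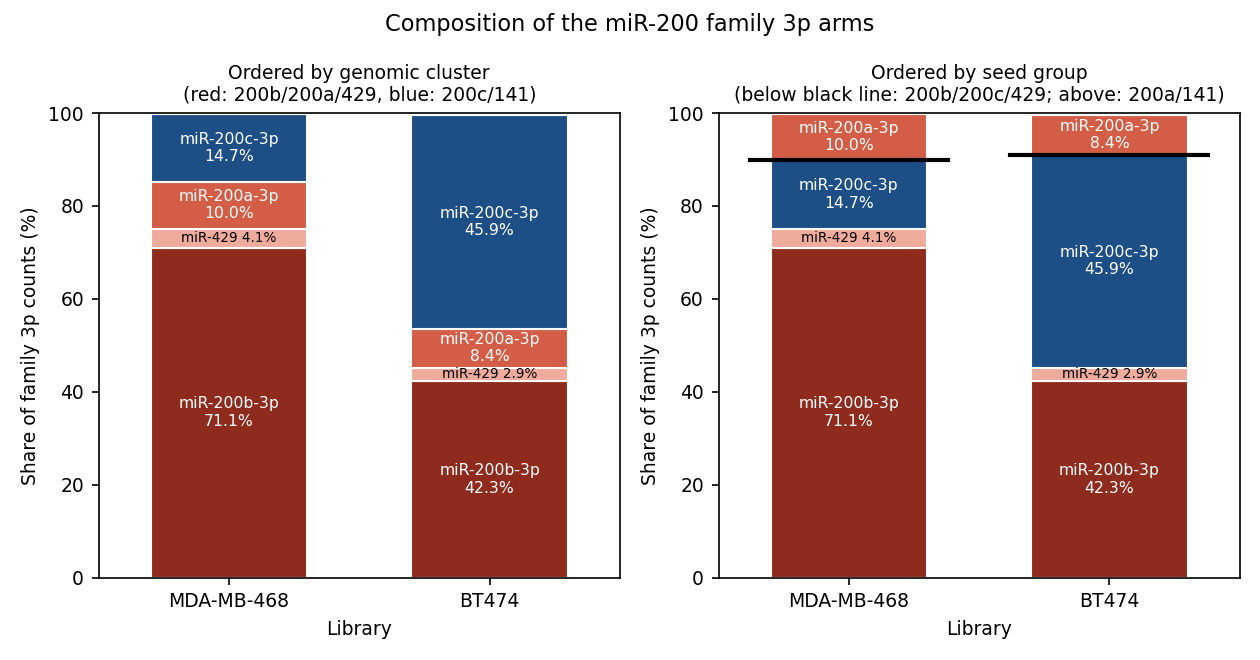
Share of the family's 3p counts held by each arm in MDA-MB-468 and BT474, 1 library each, with arms stacked by genomic cluster on the left and by seed group on the right; miR-141-3p (0.147% in MDA-MB-468, 0.506% in BT474) is too thin to be seen. The chromosome 1 arms in red take 85.2% of the MDA-MB-468 bar and 53.6% of the BT474 bar, while the black line between the seed groups stands at 89.8% in MDA-MB-468 and 91.1% in BT474.

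The hairpins of a cluster lie close together. MIR200B, MIR200A and MIR429 span 1984 bases of chromosome 1, starting 4227, 4986 and 6128 bases after the start of the long non-coding gene MIR200BHG in RefSeq (GRCh38.p14, 1162877 to 1170338). MIR200C and MIR141 span 493 bases of chromosome 12, starting 454 and 852 bases after the start of MIR200CHG (6963245 to 6964447), and both lie in an intron of it in GENCODE 29.

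The proportion of 3p arms within a cluster differed by 1.11-fold to 1.41-fold between the libraries. The count ratio of miR-200c-3p to miR-141-3p was 100.2 (94.7 to 106) in MDA-MB-468, against 90.6 (86.1 to 95.4) in BT474, a 1.11-fold difference (1.02 to 1.19). miR-200b-3p to miR-429 stood at 17.4 (17.2 to 17.6) in MDA-MB-468, against 14.8 (14.5 to 15.1) in BT474, 1.18-fold apart (1.15 to 1.21). miR-200b-3p to miR-200a-3p stood at 7.09 (7.03 to 7.14) in MDA-MB-468, against 5.02 (4.95 to 5.08) in BT474, 1.41-fold apart (1.39 to 1.43). Each of these differences exceeded the counting error. Pairs that span the clusters differed more. miR-200b-3p to miR-200c-3p, which share a seed, stood at 4.84 in MDA-MB-468, against 0.923 in BT474, 5.24-fold apart (5.19 to 5.29). miR-200a-3p to miR-141-3p, which share the other seed, stood at 68.4 in MDA-MB-468, against 16.7 in BT474, 4.10-fold apart (3.79 to 4.43).

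Use of the arms was compared within each hairpin. The 5p share of mir-200a was 27.7% in MDA-MB-468 (27.4 to 28.0), against 13.6% in BT474 (13.2 to 13.98), higher by 14.1 percentage points in MDA-MB-468. Among 124 hairpins whose arms are listed on 1 precursor and reach 100 reads per library together, the median absolute difference was 0.695 points, and mir-200a stood at rank 9. Of these hairpins, 14 differed by more than 10 points and 60 had intervals that did not overlap. A blank arm was taken as 0 counts there, which lowers the median. The 5p share of mir-200b was 0.302% in MDA-MB-468 (0.288 to 0.316), against 0.743% in BT474 (0.697 to 0.792), the opposite direction at a much lower level. For mir-141 it was 12.7% in MDA-MB-468 (10.95 to 14.6), against 7.82% in BT474 (6.57 to 9.23). mir-200c was almost entirely 3p, with a 5p share of 0.0343% in MDA-MB-468 (0.0246 to 0.0465), against 0.00878% in BT474 (0.00454 to 0.0153), figures that rest on 41 counts in MDA-MB-468, against 12 in BT474.

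The ratio of mir-200b to mir-200a thus differed in opposite directions for the 3p and the 5p arms. miR-200b-3p to miR-200a-3p was 1.41-fold larger in MDA-MB-468, but miR-200b-5p to miR-200a-5p stood at 0.0560 (0.0533 to 0.0588) in MDA-MB-468, against 0.239 (0.222 to 0.257) in BT474, 4.27-fold smaller in MDA-MB-468 (3.91 to 4.65). Both passenger arms share the seed AUCUUAC shown above. Together they reached 2881 CPM in MDA-MB-468, against 954 CPM in BT474, 3.02-fold higher in MDA-MB-468 (2.93 to 3.11). Of these sums, miR-200a-5p held 2728 CPM in MDA-MB-468, against 770 CPM in BT474.

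**Figure D4:**
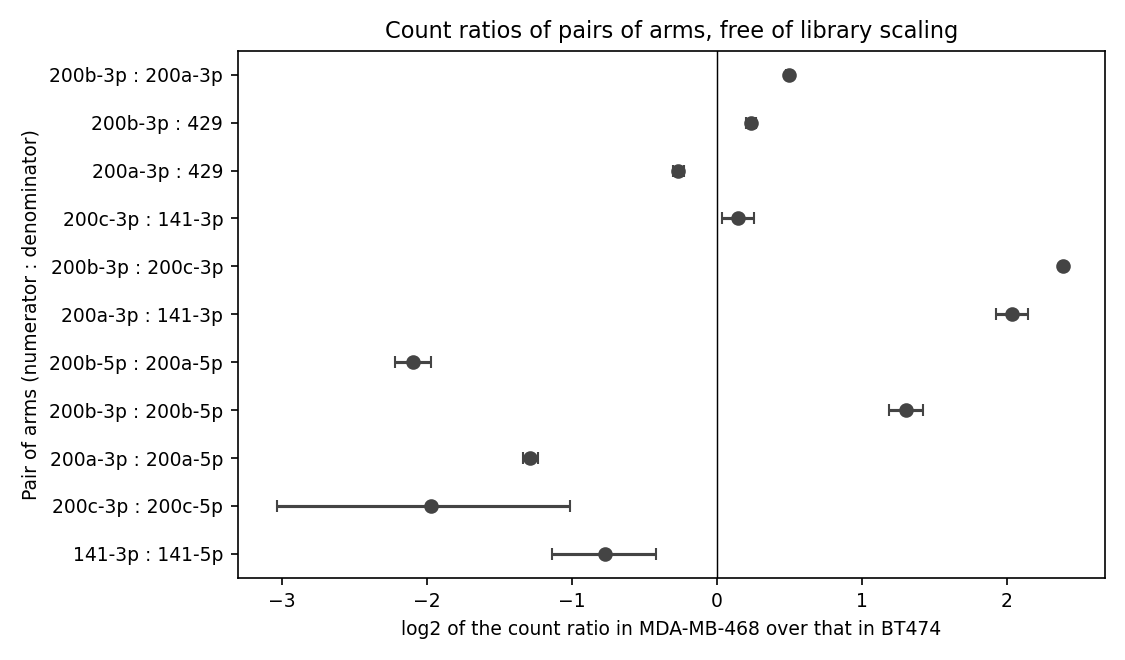
log2 of the count ratio of each pair of arms in MDA-MB-468 over the same ratio in BT474, with exact 95% counting intervals; values do not depend on library scaling. Pairs of 3p arms of the same cluster lie between -0.26 and 0.50, the pairs across clusters at 2.39 and 2.04, and 200b-5p to 200a-5p at -2.09.

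The promoters of the host genes are shown because each host gene spans the hairpins of its cluster and ZEB1 and ZEB2 are known to bind E-boxes there. Capitals mark the E-box CACCTG or its reverse complement CAGGTG, searched on both strands in the window from 250 bases before to 50 bases after the RefSeq start site.
MIR200BHG, chr1:1162627-1162926, plus strand: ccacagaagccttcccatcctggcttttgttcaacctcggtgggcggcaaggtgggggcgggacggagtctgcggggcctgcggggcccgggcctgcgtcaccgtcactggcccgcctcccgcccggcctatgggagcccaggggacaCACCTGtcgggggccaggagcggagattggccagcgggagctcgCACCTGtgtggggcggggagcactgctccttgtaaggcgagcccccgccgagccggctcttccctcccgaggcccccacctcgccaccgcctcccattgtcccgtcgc
MIR200CHG, chr12:6962995-6963294, plus strand: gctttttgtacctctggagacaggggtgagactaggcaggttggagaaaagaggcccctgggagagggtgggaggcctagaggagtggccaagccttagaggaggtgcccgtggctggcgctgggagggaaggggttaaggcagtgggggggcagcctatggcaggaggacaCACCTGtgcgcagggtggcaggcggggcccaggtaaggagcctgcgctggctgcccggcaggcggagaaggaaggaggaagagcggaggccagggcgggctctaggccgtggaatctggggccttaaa
The window of MIR200BHG held 2 matches, at -102 and -58 from the start site, and that of MIR200CHG held 1, at -78. Of 35116 promoter windows of the same length in the RefSeq table, 20.6% held at least 1 match and 3.49% at least 2. A match describes the letters of the reference and not binding in these cells.

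Summed over all arms, the family took 7.39% of counts in MDA-MB-468 (7.38 to 7.41), against 5.90% in BT474 (5.88 to 5.92), a log2 ratio of 0.32 (0.32 to 0.33) that was not called. This direction turned without miR-21-5p, which held 25.1% of MDA-MB-468 counts and 54.2% of BT474 counts. With miR-21-5p left out of the total, the family took 9.87% in MDA-MB-468, against 12.9% in BT474, and the log2 ratio was -0.39. Every arm moves by the same -0.71 with that change, which turned miR-200a-3p to -0.17 and left miR-200b-3p at 0.33 and miR-200c-3p at -2.06. The sign of the family's sum thus depended on the scaling, whereas the odds between the clusters do not involve it.

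**Figure D5:**
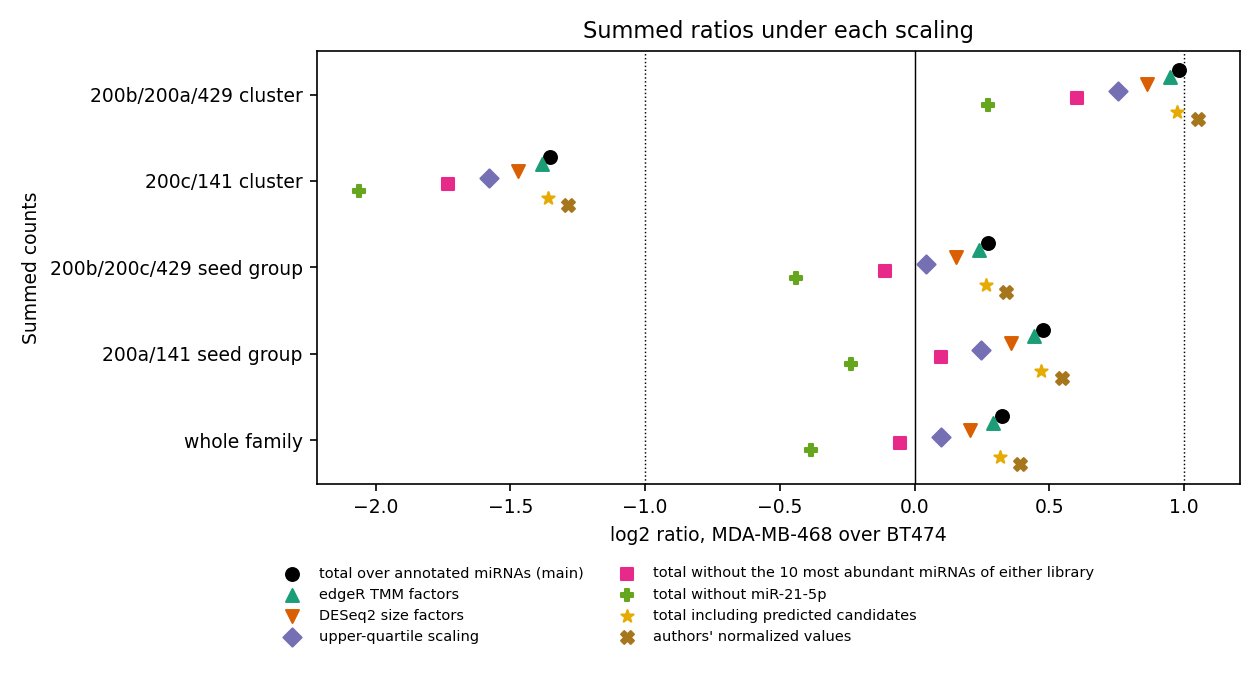
log2 ratio of MDA-MB-468 over BT474 for the summed counts of each cluster, each seed group and the whole family under 8 scalings; dotted lines mark 2-fold. The chromosome 12 cluster lies between -2.06 and -1.29 and the chromosome 1 cluster between 0.27 and 1.05, while the AAUACUG seed group (with miR-200b), the AACACUG seed group (with miR-200a) and the whole family lie on both sides of 0.

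Other miRNAs of the epithelial-mesenchymal circuit were set beside the family. Of 7 miRNAs described as repressors of ZEB1, ZEB2, SNAI1 or SNAI2, 6 could be compared, of which 3 were called higher and 0 lower in the triple-negative line (median log2 1.31), against 32.9% and 28.3% of all miRNAs compared (median 0.30). The 3 were miR-30a-5p (log2 7.02), miR-205-5p (7.87) and miR-101-3p, which stood at 2007 CPM in MDA-MB-468, against 563 CPM in BT474 (log2 1.83, 1.78 to 1.89). Of those not called, miR-34a-5p was higher in MDA-MB-468 (0.79), and miR-203a-3p (-0.85) and miR-130b-3p (-0.93) were lower. The shift of -0.71 without miR-21-5p takes these last past 2-fold, so the count of 0 lower depends on the scaling. Of 9 miRNAs described as promoting the transition, 7 could be compared, with a median of 0.61. Of these, 2 were called higher, miR-221-3p (log2 4.88) and miR-222-3p (4.94), and 1 lower, miR-155-5p (-1.26). The shares of all were the same 32.9% and 28.3%. Not called were miR-107 (0.83), miR-103a-3p (0.61), miR-10b-5p (-0.18) and miR-9-5p (-0.98). The shift of -0.03 with edgeR TMM factors takes miR-9-5p past 2-fold, so the count of 1 lower depends on the scaling.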

How the data were processed

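Stem-enriched cells of 2 lines were sequenced, 1 library each. Per the labels' protocols, small-RNA libraries were made from total RNA by adaptor ligation and PCR and read on an Illumina HiSeq. The authors deposited raw tag counts of all isoforms per mature miRNA and precursor, and a normalized version, scores rounded to whole numbers. The submitters' processing notes name Novoalign 2.07.11. How scores were scaled, the genome build, the annotation and the counter are not stated in what was used here. The header MAD-MB-468 was taken for the MDA-MB-468 sample, as no other title is like it.

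Of 2121 rows, 384 predicted candidates were left out. Counts of a name on several precursors were taken as the largest, and miR-199a-3p and miR-199b-3p were merged. Family arms each stood on 1 precursor and needed neither step.

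CPM, exact intervals and calls were computed with scipy 1.17.1, and the calling step was tested on simulated data. The simulated counts varied by Poisson counting error alone, so that test does not cover PCR or variation between cultures. A blank in 1 library was set at 3 counts in the ratio and 0 in the interval. Scaling alternatives used edgeR 4.0.16 (TMM) and DESeq2 1.42.0 (size factors), both over the 690 miRNAs compared, for factors alone. Adaptor ligation is known to vary with sequence, so levels of different arms within a library may not scale with molecules, which was not tested. The members, lists and alternatives were chosen with earlier results of these data known. All 9 arms were named by rule, with the called members of the lists of the epithelial-mesenchymal circuit. The 3 miRNAs nearest in ratio to miR-200b-3p and to miR-200c-3p, among those with at least 1000 CPM in both libraries, were also named. Compared members of the repressor, transition-promoting and epithelial lists that were not called were added beside those called. The called stromal miRNAs were also named, and the called blood cell miRNAs were counted but not named.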

Additional observations from a re-analysis of the deposited data

How the results depend on the processing

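No paired analysis was possible because each group held 1 library. Scaling moved all log2 ratios by -0.03 (TMM), -0.01 (predicted candidates in the total), -0.12 (DESeq2 size factors), -0.23 (upper quartile), -0.38 (the 10 most abundant miRNAs of each library, 13 in all, left out) and -0.71 (miR-21-5p left out, chosen after seeing the data). Those 13 included miR-200b-3p and miR-200c-3p, so that total lacks the family's leading arms. With the 13 left out, the AAUACUG sum was at -0.11 and the family at -0.056. Without miR-21-5p, the AAUACUG sum was at -0.44, the AACACUG sum at -0.23, the family at -0.39, miR-200a-3p at -0.17 and miR-200c-5p at -0.095. The chromosome 1 cluster reached 2-fold only with the authors' normalized values (1.05), where calls rest on the fold alone. The number of arms called higher was 1 with DESeq2 size factors, 1 with the upper quartile, 1 without the most abundant miRNAs, 1 without miR-21-5p and 1 at 3-fold, where 0 were called lower; the other settings gave 2 or 3. The number called lower was 3 without the most abundant miRNAs and 3 without miR-21-5p, where miR-141-5p joined (-1.10 and -1.43). miR-200c-5p passed 2-fold with the authors' normalized values (1.58). The chromosome 1 share of family counts was 85.2% in MDA-MB-468, against 53.6% in BT474 with 3p arms alone, 55.0% in MDA-MB-468, against 21.8% in BT474 without miR-200b-3p, and 99.8% in MDA-MB-468, against 99.0% in BT474 without miR-200c-3p. The AAUACUG share was 64.9% in MDA-MB-468, against 84.5% in BT474 without miR-200b-3p, and 88.1% in MDA-MB-468, against 83.5% in BT474 without miR-200c-3p, so it depended on those arms. The family's share of counts was 9.87% in MDA-MB-468, against 12.9% in BT474 without miR-21-5p, and 7.11% in MDA-MB-468, against 5.71% in BT474 with predicted candidates. No family arm was blank, so the value given to a blank changed no family ratio. It does enter the shares called and the median over all miRNAs compared, and other values were not tried. Depth limits miR-200c-5p, with 41 counts in MDA-MB-468, against 12 in BT474.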

Other observations

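Among 40 miRNAs outside the family with at least 1000 CPM in both libraries, those nearest in log2 ratio to miR-200b-3p (1.04) were miR-27b-3p (1.06), miR-320a (0.99) and miR-23a-3p (1.11). Those nearest to miR-200c-3p (-1.35) were miR-26b-5p (-1.23), miR-25-3p (-1.18) and miR-125a-5p (-1.12). This is a likeness over 2 libraries.

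Markers of other cells were low beside the family's sum. The stromal sum in MDA-MB-468 was nevertheless above the level of miR-141-3p there (104 CPM). The 4 stromal miRNAs summed to 372 CPM in MDA-MB-468, against 168 CPM in BT474. Most of this was miR-143-3p, at 354 CPM in MDA-MB-468, against 158 CPM in BT474. Of 3 compared, 2 were called higher in MDA-MB-468, against 32.9% of all miRNAs compared. These were miR-143-3p (log2 1.17) and miR-145-5p (1.16), and the upper-quartile shift of -0.23 takes both below 2-fold. The 6 blood cell miRNAs summed to 46.3 CPM in MDA-MB-468, against 63.9 CPM in BT474, with 3 of 5 compared called lower, against 28.3% of all. Of the 6 epithelial miRNAs outside the family, only miR-205-5p was called, higher in MDA-MB-468, against 32.9% called higher among all miRNAs compared. Of the rest, miR-96-5p was higher (log2 0.42). Lower were miR-183-5p (-0.88), miR-203a-3p (-0.85), miR-182-5p (-0.53) and miR-375 (-0.32). The shift of -0.71 without miR-21-5p takes these last past 2-fold, so the absence of lower calls depends on the scaling. The part of these markers in the family's values was not tested.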
